A study of Mus musculus with 2 samples.

Results

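The genes described here are the heat shock proteins and the DNAJ co-chaperones, taken as every gene name on the array that begins with Hspa, Hspb, Hspd, Hspe, Hsph or Dnaj. There were 70 of them, 25 named Hsp and 45 named Dnaj, among 34741 gene names, each with 1 to 4 probes. The HSP90 genes do not fall under this rule and are described with the partner genes. All 70 names are current mouse symbols, and the array's own description of each of their probes named a heat shock protein, a DnaJ homolog or an HSPB-associated protein.

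All mice were CD2F1/Slc males, 11 weeks old, and RNA was taken from skeletal muscle. In the C26 group, 1000000 colon 26 carcinoma cells in 100 μL of phosphate-buffered saline had been implanted under the skin of the flank, a model of cancer cachexia, the wasting of muscle and fat that accompanies some tumours. The control group had received the same volume of the saline without cells. Each group was hybridised to 1 single-colour array; the sources used here do not give the muscle taken, the number of mice behind each RNA or the time since implantation. With no replicate there was no test, and each value describes this pair of arrays.

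Heat shock proteins are molecular chaperones. HSP70 proteins grip exposed hydrophobic stretches of unfolded chains in a cycle driven by ATP. DNAJ proteins, named for the J domain that stimulates the HSP70 ATPase, bring the clients, and exchange factors such as Hsph1 release them. Small heat shock proteins hold unfolding proteins without ATP, and several are abundant in muscle, where they associate with filaments and the Z-disc. The transcription factor HSF1 induces many of these genes under proteotoxic stress by binding heat shock elements, and the unfolded protein response of the endoplasmic reticulum induces another set.

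The promoters below are shown because they hold the motifs by which these stress programmes are known to act, beside genes whose ratios can then be compared. Each runs for 200 bases up to the base before an annotated start (Dnajb6 has 2 such starts, of which the downstream one is shown), 5′ to 3′ on the strand of the gene, from RefSeq on GRCm38.p6. Capitals mark the letters fixed by the motif. The first pair hold the shorter heat shock element of 2 units, GAANNTTC, where N is any base.

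Hspa1a (chr17:34972157-34972356, minus strand): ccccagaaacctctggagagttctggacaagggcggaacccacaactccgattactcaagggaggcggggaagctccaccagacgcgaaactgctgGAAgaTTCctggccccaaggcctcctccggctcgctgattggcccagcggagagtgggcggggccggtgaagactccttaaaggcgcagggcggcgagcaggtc
Hspb1 (chr5:135887719-135887918, plus strand): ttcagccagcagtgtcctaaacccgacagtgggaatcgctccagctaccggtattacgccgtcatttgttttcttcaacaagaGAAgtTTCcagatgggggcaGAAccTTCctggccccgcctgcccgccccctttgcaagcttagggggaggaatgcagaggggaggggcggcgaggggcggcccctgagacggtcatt

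The next promoters hold a longer element of 3 units, which is GAANNTTC followed after any 2 bases by another GAA. The first lies between the mitochondrial chaperonin genes Hspe1 and Hspd1, which are transcribed away from each other. Its capitals mark 2 overlapping matches, read on opposite strands.

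Hspe1 and Hspd1 (chr1:55087948-55088147, plus strand): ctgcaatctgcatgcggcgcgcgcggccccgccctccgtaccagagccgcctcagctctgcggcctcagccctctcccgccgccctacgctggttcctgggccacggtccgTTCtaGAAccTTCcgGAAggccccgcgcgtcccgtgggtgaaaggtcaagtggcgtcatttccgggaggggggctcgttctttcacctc
Dnajb6 (chr5:29735779-29735978, plus strand): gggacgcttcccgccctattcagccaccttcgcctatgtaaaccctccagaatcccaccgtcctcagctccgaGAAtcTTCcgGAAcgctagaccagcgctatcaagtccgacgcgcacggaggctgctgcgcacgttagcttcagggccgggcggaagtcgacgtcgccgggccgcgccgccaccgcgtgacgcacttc

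The last pair hold the endoplasmic reticulum stress element, which is CCAAT, any 9 bases and CCACG.

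Hspa5 (chr2:34771890-34772089, plus strand): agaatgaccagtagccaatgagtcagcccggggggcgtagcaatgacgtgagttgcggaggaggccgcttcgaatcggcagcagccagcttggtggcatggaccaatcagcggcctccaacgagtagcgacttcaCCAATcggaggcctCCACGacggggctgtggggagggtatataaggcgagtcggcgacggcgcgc
Dnajc3 (chr14:118937732-118937931, plus strand): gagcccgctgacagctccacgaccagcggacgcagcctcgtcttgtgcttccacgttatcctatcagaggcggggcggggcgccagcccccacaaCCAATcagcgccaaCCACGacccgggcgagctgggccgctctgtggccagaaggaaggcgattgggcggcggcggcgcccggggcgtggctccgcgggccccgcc

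Of the 70 genes, 61 were measured, meaning that the brightest probe of the gene was well above background on both arrays. That is 87.1% of the group, against 56.6% of all gene names. Signals are given below as multiples of the 75th percentile of the array's own probes, so that a value of 1 is that percentile, and a ratio is the C26 signal over the control signal on the log2 scale. Beside each ratio stands an error combined from those that the scanner software computed for the spots, which holds no spread between mice. For a probe printed in several copies the errors of the copies were combined as if independent, which makes it smaller. For the measured chaperone genes the median error was 0.20, and 59 of the 61 rested on 1 spot per array. Except in dim genes, the error of those 59 hardly changed with signal. It was 0.204 for Hspa8 (control signal 392) and 0.205 for Hspa2 (control signal 1.43). Lying within the error is thus close to a fixed cut on the ratio, not a precision measured for each gene.

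The chaperone and co-chaperone genes mostly had signals within 1.5-fold of each other in control and C26 muscle, 59 of the 61 measured. Of the 61 measured genes, 2 were at least 1.5-fold higher in the C26 array, Hspa1a and Hspb7, where 4.37% of all 19668 measured genes were past that fold. None was at least 1.5-fold lower, where 4.83% of all measured genes were, and 9.19% of all measured genes passed it either way. No member passed 2-fold in either direction, against 1.25% of all measured genes on the higher side, 1.15% on the lower and 2.39% either way. The median log2 ratio was 0.10, with 41 genes above 0 and 20 below, beside a median of 0.04 over all measured genes, of which 56.5% lay above 0. Under quantile normalization, loess and the deposited values 33 members were above 0 and 28 below.

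**Figure D1:**
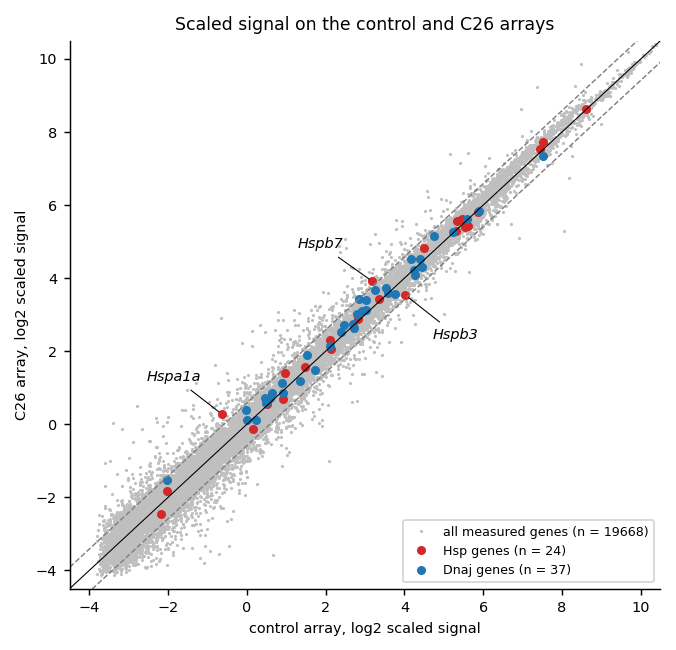
Log2 scaled signal on the control array (horizontal axis) and the C26 array (vertical axis) for all 19668 measured genes (grey), the 24 measured Hsp genes (red) and the 37 measured Dnaj genes (blue). The solid line marks equal signal and the dashed lines 1.5-fold, and Hspa1a and Hspb7 are the 2 members beyond a dashed line.

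The median size of the ratios, with the sign left out, was 0.18 on the log2 scale, close to the 0.19 of all measured genes. Of the members, 59.0% lay within 0.2 of 0 and 93.4% within 0.5, whereas 52.0% and 87.2% of all measured genes did. A stricter filter kept genes with a processed signal of at least 100 on both arrays, before scaling. There the median size was 0.17 both for the 58 members and for all 14139 genes, and 96.6% and 93.5% lay within 1.5-fold. A ratio of at least 2 times its scanner error was found for 6 members above 0 and 1 below, or 11.5% of them, against 15.8% of all measured genes.

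**Figure D2:**
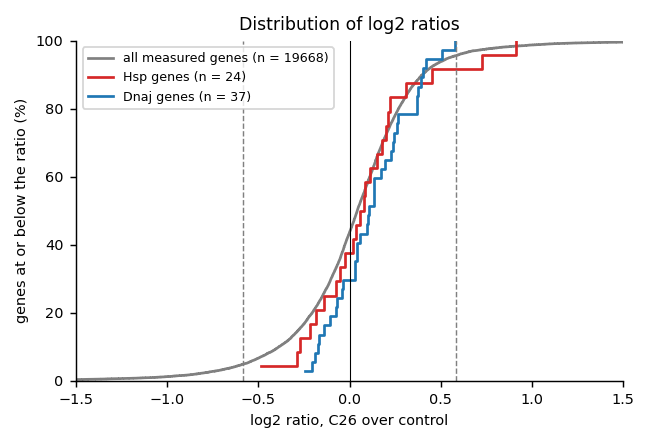
Percentage of genes (vertical axis) at or below each log2 ratio of C26 over control (horizontal axis) for all 19668 measured genes (grey), 24 Hsp genes (red) and 37 Dnaj genes (blue), with 1.5-fold as dashed lines; the horizontal axis is cut at 1.5 on either side. The Hsp and Dnaj lines reach their ends inside the tails of the grey line, the lowest member standing at -0.49 and the highest at 0.91.

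Hspa1a, the stress-inducible HSP70 of the cytosol, had the highest ratio. Its scaled signal was 0.64 in the control array and 1.21 in the C26 array, which is a log2 ratio of 0.91 (error 0.21), or 1.88-fold. The value rests on 1 probe with 1 spot per array, at chr17:35107117-35107176 on mm9. Hspa1a has a near-identical neighbour, Hspa1b, for which no probe of that name was used here, so signal from either gene may enter. The lowest ratio over the alternatives was 0.69, past 1.5-fold, under normexp correction.

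The other cytosolic HSP70 genes stood close to 0 apart from Hspa1l. Hspa1l, a testis-enriched relative that starts 547 bases from Hspa1a on the opposite strand, had scaled signals of 1.95 in control and 2.66 in C26 and a log2 ratio of 0.45 (error 0.20). Hspa8, the constitutive HSP70, had signals of 392 and 398, a log2 ratio of 0.02 (error 0.20). Its other probes gave -0.01 and -0.08, so no probe of the constitutive gene departed from equal signal by more than its error. Hspa2, abundant in testis, had a log2 ratio of 0.04 and Hspa14, which works at the ribosome, 0.06. Dnajc2, the J protein that pairs with Hspa14 on the ribosome, had 0.37 (error 0.20).

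The exchange factors related to HSP70 did not share a direction. Hsph1 (HSP110), itself heat inducible, had scaled signals of 10.2 in control and 10.8 in C26, a log2 ratio of 0.09 (error 0.20), and its second probe gave 0.08. Hspa4 had signals of 22.7 and 28.1 and a ratio of 0.31 at its brightest probe but -0.09 and -0.12 at the other 2, and the mean over the 3 was 0.03. Hspa4l had signals of 1.11 and 0.91 and a ratio of -0.29 (error 0.21). Hspbp1, an exchange factor that binds HSP70, had -0.08.

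Among the HSP70 proteins of organelles, Hspa5 (BiP), the master chaperone of the endoplasmic reticulum, had signals of 39.8 and 39.1 and a log2 ratio of -0.025 (error 0.20). Hspa9 (mortalin), which drives import into the mitochondrial matrix, had signals of 40.7 and 47.0 and a ratio of 0.21 (error 0.20). Hspa13, of microsomes, had signals of 1.89 and 1.63 and a ratio of -0.22 (error 0.20). The divergent family members differed in sign: Hspa12a had signals of 0.22 and 0.18 and a ratio of -0.27 (error 0.25), and Hspa12b, known from endothelium, had 4.34 and 4.98 and 0.20 (error 0.20). The median of the 5 was -0.025.

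The small heat shock proteins held both a member printed in 10 copies and the member with the lowest ratio. Hspb7, a chaperone of heart and skeletal muscle that binds filamin C, was printed in 10 copies on each array. On the control array the copies had scaled signals of 8.75 to 9.27, and on the C26 array 14.7 to 15.3. The copies on the arrays did not overlap, although copies on 1 array share the same RNA and are not replicates. The log2 ratio of Hspb7 was 0.73 (error 0.06 with the copies taken as independent), or 1.66-fold, with a standard deviation of 0.02 between copies. The probe lies at chr4:140980355-140980414 on mm9.

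Hspb3, a small heat shock protein of muscle that forms a complex with Hspb2, had the lowest ratio of the measured members. Its scaled signal was 16.2 in control and 11.6 in C26, a log2 ratio of -0.49 (error 0.20), or 1.40-fold lower, short of the threshold; over the alternatives it lay between -0.58 and -0.49. Its partner Hspb2 had signals of 49.0 and 43.2 and a ratio of -0.18 (error 0.20). Hspb1, Hspb6 and Hspb8, also found in muscle, stood nearer 0 than Hspb3 and Hspb7. Hspb1 (HSP25 in the mouse) had signals of 174 and 184 and a log2 ratio of 0.08, and Hspb6 (HSP20) had 182 and 212 and 0.22. Hspb8, the partner of Bag3 in the clearance of damaged filamin, had 46.7 and 42.5 and a ratio of -0.14. Hspb9 and Hspb11, which are not muscle chaperones, had 0.18 and 0.11. Of the 8 genes grouped here as small heat shock proteins from their Hspb symbols, Hspb11 among them, 5 had a ratio above 0 and 3 below. Under quantile normalization, loess and the deposited values it was 4 and 4.

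The mitochondrial chaperonin Hspd1 (HSP60) and its lid Hspe1 (HSP10) share the promoter printed above, with 216 bases between their starts. Hspd1 had scaled signals of 58.0 in control and 56.0 in C26, a log2 ratio of -0.05 (error 0.20). Hspe1 had 43.9 and 48.8 and a ratio of 0.15 (error 0.20). Its other probes gave 0.08 and 0.09, the latter from a probe that overlaps the brightest one in position. Hspd1 and Hspe1 both lay within their error of equal signal.

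**Figure D3:**
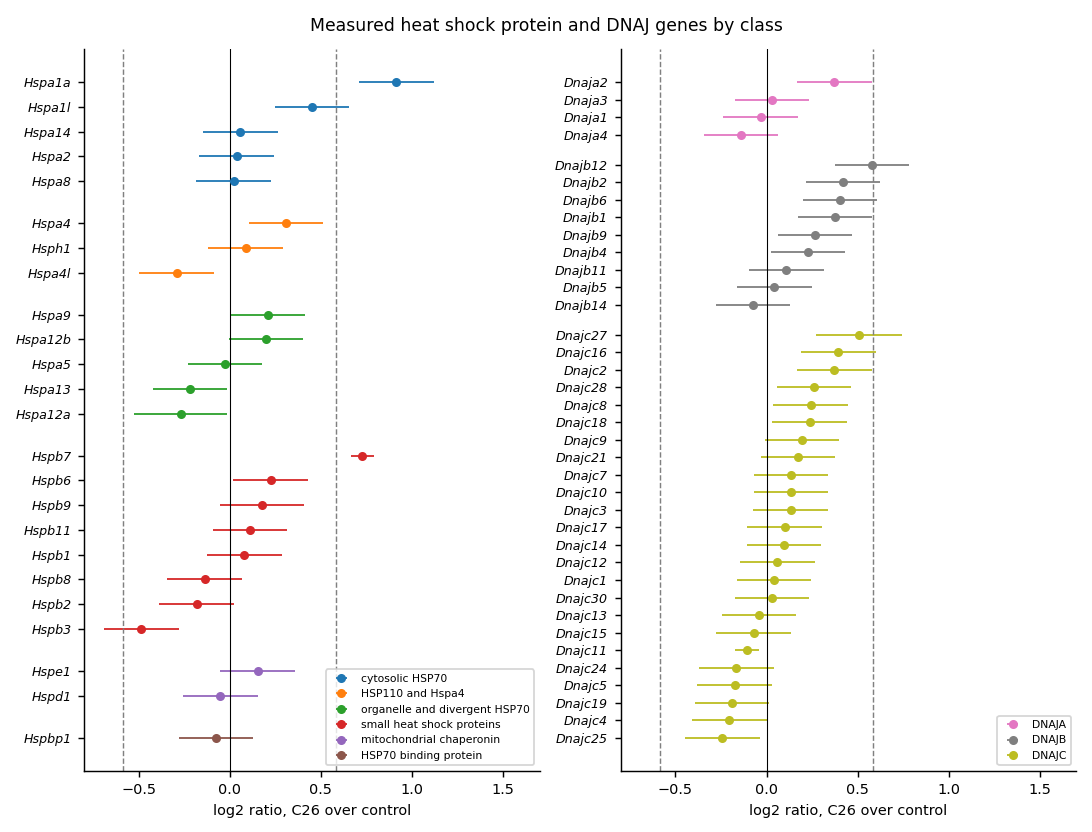
Log2 ratio of C26 over control (horizontal axis) for the 61 measured genes, Hsp genes on the left and Dnaj genes on the right, coloured by class; bars are the scanner error of the ratio and dashed lines mark 1.5-fold. Hspa1a at 0.91 and Hspb7 at 0.73 lie beyond the line on the higher side, Dnajb12 at 0.58 lies just short of it, and no gene lies beyond the line on the lower side.

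**Figure D4:**
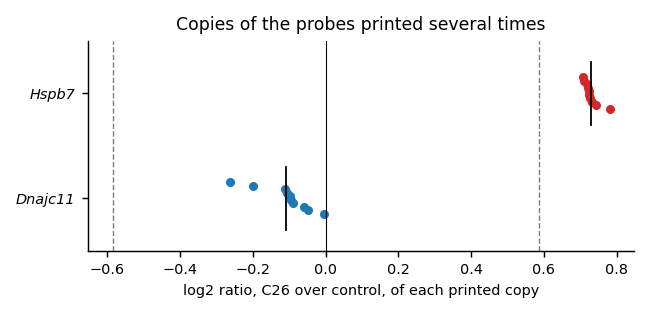
Log2 ratio of C26 over control (horizontal axis) of each of the 10 printed copies of the Hspb7 and Dnajc11 probes, with the mean as a vertical bar and 1.5-fold as dashed lines; vertical offsets within a gene only separate the points. The Hspb7 copies lie between 0.71 and 0.78 and the Dnajc11 copies between -0.26 and -0.01.

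The 4 DNAJA genes, whose products resemble bacterial DnaJ most closely, ran from Dnaja2 at a log2 ratio of 0.37 (error 0.20) to Dnaja4, with signals of 22.0 and 19.9, at -0.14 (error 0.20). Dnaja3, which works in mitochondria, had 0.03. Dnaja1 had scaled signals of 19.1 and 18.6 at its brightest probe and a ratio of -0.03, while a dim second probe gave 0.65 (error 0.31). The probes of Dnaja4 also differed in sign, at -0.14 and 0.20.

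Of the 9 measured DNAJB genes, 8 had a ratio above 0, or 7 under each other scaling except normexp. Over all measured genes 56.5% lay above 0, or 47.5% to 49.7% under those other scalings. None of the 9 passed 1.5-fold. Dnajb12, a J protein of the endoplasmic reticulum membrane that serves the degradation of misfolded membrane proteins, came nearest. Its signal was 7.25 in control and 10.8 in C26, a log2 ratio of 0.58 (error 0.20), or 1.49-fold. Its relative Dnajb14 had -0.07 and -0.21 from 2 probes. Dnajb6, a suppressor of protein aggregation whose mutation causes a limb-girdle muscular dystrophy in people, was covered by 4 probes, all above 0. Those listed under transcript variant 1, which overlap in position and are not separate readings, gave 0.40 and 0.37. Those under variant 2 gave 0.48 and 0.61. Each had an error of 0.20 to 0.21.

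Dnajb1 (HSP40), the classical heat-inducible partner of HSP70, had scaled signals of 8.18 and 10.6 and a log2 ratio of 0.37 (error 0.20). Dnajb2, which steers clients to the proteasome, had 9.55 and 12.8 and 0.42 (error 0.20), with 0.17 at its other probe. Dnajb4 and Dnajb5 are relatives of Dnajb1. Dnajb4 had signals of 1.54 and 1.80 and a ratio of 0.23, and Dnajb5 had 48.0 and 49.4 and 0.04.

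The J proteins of the endoplasmic reticulum had a median log2 ratio of 0.13 over 10 genes, 8 of them above 0, or 7 under each other scaling. Over all measured genes 56.5% lay above 0, or 47.5% to 55% under the other scalings. Dnajb9 (ERdj4), a strong target of the unfolded protein response, had signals of 5.50 and 6.60 and a ratio of 0.26 (error 0.20), and its second probe 0.36. Dnajb11 (ERdj3), a BiP cofactor, had 8.09 and 8.73 and a ratio of 0.11. Dnajc3 (p58IPK), an inhibitor of the kinase PERK, had 1.49 and 1.64 and a ratio of 0.13, and Dnajc1 stood at 0.04. Dnajc10 (ERdj5), a disulfide reductase, had 0.13 at its brightest probe and 0.70 (error 0.21) at a dimmer one. Dnajc16 stood at 0.39, Dnajc18 at 0.24 and Dnajc25, with signals of 3.34 and 2.82, at -0.24 (error 0.20). Among the members that the stress response of this organelle is known to induce, Hspa5, Dnajb11 and Dnajc3 were within their error of equal signal. Dnajb9 was beyond its error at both probes. Dnajc10 was within its error at its brightest probe and beyond it at the dimmer one. Genes of this response outside the family are given further below. The brightest probe of Dnajb9 gave 0.201, 0.199 and 0.202 under quantile normalization, loess and the deposited values, within its error of 0.204.

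The mitochondrial J proteins had a median of -0.02 over 6 genes, with 3 above 0 and 3 below, or 1 and 5 under every other scaling except normexp. Dnajc19, of the import motor, had signals of 19.4 and 17.0 and a ratio of -0.19 at its brightest probe, and 0.11 at another, and Dnajc15, its paralog, had signals of 59.8 and 56.9 and -0.07. Dnajc11, which helps shape cristae, was printed in 10 copies. Its copies had scaled signals of 1.11 to 1.25 in control and 0.94 to 1.16 in C26, which overlap. The log2 ratio was -0.11 (error 0.07 with the copies taken as independent). Dnajc28 stood at 0.26 and Dnajc30 at 0.03.

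The remaining DNAJC proteins serve varied tasks, many of them specialised. Dnajc27, which joins a J domain to a Rab-like GTPase, had the highest ratio of the 24 measured members of the class, with dim signals of 0.24 in control and 0.35 in C26 and a log2 ratio of 0.51 (error 0.23), or 0.23 with normexp correction. Dnajc5 (cysteine string protein), a chaperone of vesicle fusion, had signals of 183 and 162 at its brightest probe and a ratio of -0.18 (error 0.20). Its 2 other measured probes gave 0.11 and 0.12. Dnajc13, of endosomes, had -0.04, and Dnajc24, needed for diphthamide synthesis on elongation factor EF2, had -0.17. Dnajc7, which passes clients between HSP70 and HSP90, had 0.13. Dnajc8 and Dnajc17, of the spliceosome, had 0.24 and 0.10, Dnajc21, of ribosome assembly, 0.17, and Dnajc9, a histone chaperone, 0.20. Dnajc12, a partner of aromatic amino acid hydroxylases, stood at 0.06, Dnajc14 at 0.10 and Dnajc4 at -0.20.

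**Figure D5:**
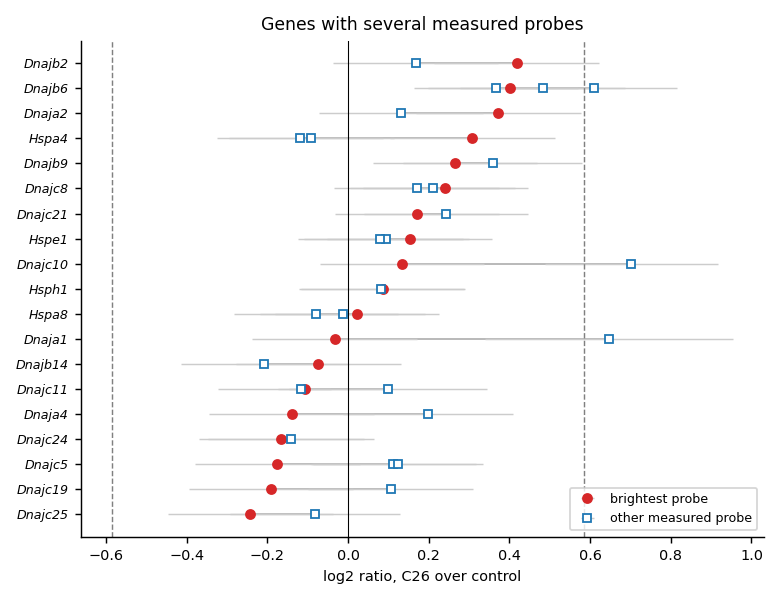
Log2 ratio of C26 over control (horizontal axis) of every measured probe for the 19 genes with several measured probes; the filled red circle is the brightest probe, open squares are the others, bars are scanner errors and dashed lines mark 1.5-fold. In 7 of the 19 genes the probes lie on both sides of 0.

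In all, 19 measured genes had several measured probes, and in 7 of them the probes differed in sign. These were Hspa4, Hspa8, Dnaja1, Dnaja4, Dnajc5, Dnajc11 and Dnajc19, whose brightest probes lay between -0.19 and 0.31. Dimmer probes passed 1.5-fold in Dnaja1, Dnajc10 and Dnajb6, and their brightest probes did not.

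The other 9 genes were not measured on both arrays. Dnajb7, Dnajb8, Dnajb13, Dnajc5b, Dnajc5g, Dnajc6 (auxilin, of clathrin uncoating in neurons), Dnajc22 and Hspbap1 were not well above background on either array. Dnajb3, a germ cell J protein, had a scaled signal of 0.09 in control, well above background, and 0.01 in C26, which was not. Its own signals gave a log2 ratio of -2.83 (error 1.48), from 1 spot per array. With the lowest signal well above background on the C26 array in place of its C26 signal, it was 1.60-fold lower. A spot not well above background can exceed that lowest signal, so 1.60-fold is no firm bound.

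RefSeq promoter windows of 250 bases before to 50 after the start were found for 58 of the 70 genes, in 75 windows, since a gene can have several annotated starts. On both strands, the heat shock element of 3 units occurred in 4 of the 58 genes (6.90%), Hspd1, Hspe1, Hsph1 and Dnajb6, beside 0.662% of all 27025 genes with a promoter (0.603% of 32851 windows). Every such match also holds the shorter element. The log2 ratios of these genes ran from -0.05 to 0.40 and none passed 1.5-fold. The shorter element was searched as GAANNTTC alone, not with its units in the other order. It occurred in 13 of the 58 genes (22.4%), beside 9.04% of all genes (7.86% of windows). The 12 of those that were measured had a median of 0.08 and ran from Hspb3 at -0.49 to Hspa1a at 0.91, so that the lowest and the highest member of the group both hold it. Counted from the start, the match of Hspa1a begins at -104 and those of Hspb1 at -117 and -97. The endoplasmic reticulum stress element occurred in Hspa5 and Dnajc3, with ratios of -0.025 and 0.13, and in 0.137% of all genes (0.119% of windows), and it overlapped no heat shock element in these promoters. A match describes the letters and does not show that a factor binds there.

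Some members start next to another gene on the opposite strand. Among starts within 1000 bases, 7 such pairs had both genes measured, and 2 of these joined members, Hspa1a with Hspa1l and Hspd1 with Hspe1. The first pair had log2 ratios of 0.91 and 0.45, the second -0.05 and 0.15. In the other pairs Dnajb4 and Fubp1 had 0.23 and 0.03, Dnajc8 and Atpif1 0.24 and -0.12, Hspa14 and Cdnf 0.06 and 0.08, Hspb11 and Lrrc42 0.11 and 0.20, and Hspb6 and Proser3 0.22 and -0.24. Hspa1a was the 1 gene past 1.5-fold among these pairs.

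The partner genes of these chaperones outside the family are read against the 90.8% of all measured genes that were within 1.5-fold. All 4 HSP90 genes were within 1.5-fold. Hsp90ab1, the constitutive HSP90 of the cytosol, had scaled signals of 265 and 349 and a log2 ratio of 0.40 (error 0.20), Hsp90aa1, the inducible one, 0.07, and Hsp90b1 (GRP94), of the endoplasmic reticulum, -0.04. Hsf1 had 0.18 (error 0.20), and none of the 3 measured heat shock factor genes, Hsf1, Hsf2 and Hsf4, passed 1.5-fold, nor did Hsbp1, which encodes a protein that binds them. Cryab (alpha B crystallin), a small heat shock protein of the Z-disc, had signals of 178 and 219 and 0.30 (error 0.20).

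Of the 10 exchange factors and BAG proteins, 90.0% were within 1.5-fold and 1 was past it, Hyou1, the HSP110 of the endoplasmic reticulum, which was dim at 0.12 and 0.19 and had a log2 ratio of 0.66 (error 0.32), or 0.23 with normexp correction. Bag3, the muscle co-chaperone that works with Hspb8, had 0.03. The list of HSP90 and HSP70 co-chaperones held 21 measured genes, among them P4ha1, a collagen hydroxylase subunit that is no co-chaperone and stood at -0.17. In this list 1 gene was past 1.5-fold, Fkbp5, an immunophilin that binds HSP90 and is induced by glucocorticoids, at 5.10 in control and 26.4 in C26 and a log2 ratio of 2.37 (error 0.20). The other genes of the list were within 1.5-fold. None of the 14 genes of the cytosolic chaperonin and prefoldin passed it, and none of the 12 mitochondrial proteases and import factors did.

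The 20 measured genes of endoplasmic reticulum folding and its stress response had a median of 0.01 and 85.0% within 1.5-fold, with 1 past 1.5-fold on the higher side and 2 on the lower. Ern1 (IRE1), a stress sensor, had scaled signals of 0.39 and 0.82 and a log2 ratio of 1.05 (error 0.21). Eif2ak3 (PERK), another sensor, had 0.56 and 0.36 and -0.61 (error 0.21), or -0.43 with normexp correction, and Sdf2l1, a partner of Dnajb11, 0.84 and 0.49 and -0.79 (error 0.21). In the list of chaperone-assisted autophagy, Sqstm1 (p62), an autophagy receptor, was the 1 of 7 past 1.5-fold, at 0.61 (error 0.20), and a second probe gave 0.32. The list had 0 genes past 1.5-fold under quantile, median and detected-probe scaling, loess and the deposited values, where Sqstm1 was as low as 0.50.

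The tissue was muscle on both arrays by its markers. The 8 fibre markers were all measured, from Mylpf at -0.32 to Actn3 at 0.30, summed to scaled signals of 7203 in control and 7390 in C26, and none passed 1.5-fold. Summed signals of other cell markers follow, control first. Erythroid markers summed to 1186 and 2141 (4 of 4 measured above 0), endothelial markers to 83.2 and 111 (8 of 8 above 0, or 5 to 6 under the scalings other than normexp), adipocyte markers to 102 and 134 (3 of 5 above 0), fibroblast markers to 586 and 385 (7 of 7 below 0), and macrophage markers to 55.2 and 45.0 (8 of 8 below 0). Sums are led by the brightest probes, so single genes are given too. Endothelial markers ran from Kdr at a log2 ratio of 0.01 to Cldn5 at 1.30, with a median of 0.36. A second measured probe of Kdr stood at -0.63. Among fibroblast markers log2 ratios ran from Col3a1 at -1.996 and Col1a1 at -1.81 to Dcn at -0.32, with a median of -0.92. Macrophage markers ran from Cd68 at -1.35 to C1qc at -0.05, with a median of -0.20. The highest probes of the macrophage markers Csf1r and Itgam stood at 0.03 and 0.02. Neutrophil markers summed to 128 and 112, of which Csf3r made up 126 and 105. The neutrophil calprotectin genes S100a8 (0.20 in control, 1.12 in C26) and S100a9 (0.92 and 4.69) had log2 ratios of 2.46 and 2.35, the median of the 5 measured neutrophil markers was 0.36 with 3 above 0, and Ltf and Mmp8 were not above background on either array. Schwann cell markers summed to 25.0 and 23.1, and male germ cell markers to 1.38 and 1.44. In bulk tissue, fewer cells of a type and less RNA per cell cannot be told apart, and the part of these cells in the chaperone values was not tested.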

How the data were processed

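Skeletal muscle RNA of 1 control and 1 C26 sample was labelled with Cy3 and hybridised to single-colour Agilent arrays. Per the file headers, Agilent Feature Extraction 10.7.1.1 read the scans, whereas the submitters' processing notes list 9.5.1.1. The deposited intensities are processed signals, background-subtracted and detrended within the array per the file headers, with a surrogate for spots too low to measure. Both arrays lay on 1 slide with the same scan time. A deposited table of 1 intensity per probe served as an alternative. Quantile normalization of the processed signals gave 99.9% of its entries to a log2 tolerance of 0.01; how the authors made it was not stated.

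Of the 59305 non-control spots (55681 probes), 50.4% in control and 53.8% in C26 were well above background, and none was saturated. With 1 array per group their number limits the precision. Outlier spots (110 and 91) were left out, copies of a probe were averaged, and the array's 75th percentile was subtracted on the log2 scale. The brightest probe stood for a gene. Probe positions are those of the files (mm9). RefSeq tables (GRCm38.p6) gave names (31381 of 55680 probes matched) and promoters; members kept the name in the file. One probe filed under another name, but matched to Dnajb8 by accession, was not counted.

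With 1 array per group no test was possible, and genes were counted at 1.5-fold. All members may be named; values are given in full for those past 1.5-fold, the 5 highest and 5 lowest, a set of well known members, and those whose probes disagree; neighbours were named by position. Members, lists and thresholds were chosen with earlier results of these data known. The computations used Python 3.11.15, numpy 2.4.6, pandas 2.3.3, statsmodels 0.14.6, biopython 1.88 and matplotlib 3.10.9, with R 4.3.3 and limma 3.58.1 for normexp, and were tested on simulated arrays.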

Additional observations from a re-analysis of the deposited data

How the results depend on the processing

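Each choice was changed alone: the background (normexp, offset 50), the scaling (quantile, median, loess with span 0.3, or a percentile of detected probes), the filter (none, or a processed signal of at least 100 before scaling), the probe rule (mean of measured probes), the source (the deposited table) and the threshold (2-fold). Hspa1a and Hspb7 were the 2 genes at least 1.5-fold higher under each of the 9 that kept the 1.5-fold threshold, with log2 ratios of 0.69 to 0.91 and 0.63 to 0.73, and 0 genes were at least 2-fold higher. No gene measured on both arrays was at least 1.5-fold lower. With no filter 3 genes were, Dnajb3, Dnajc6 and Hspbap1, each not well above background in C26. For Dnajb3 the limits given above apply. The median log2 ratio of the members lay between 0.02 and 0.10. Of 546 values of single members under an alternative, 9 moved by more than the scanner error, but many could not. The filters left the ratio of a measured brightest probe unchanged, and the probe mean left genes with 1 measured probe unchanged. Median and detected-probe scaling moved every ratio by 1 amount, smaller than any member's scanner error. The deposited table nearly repeated quantile normalization. The alternatives are thus not separate checks, and the count does not measure robustness. The sign turned in 12 members, none of which exceeded 0.18 in size, so their direction is not given by these arrays. For the others, a sign kept when the same pair of arrays is processed anew does not establish a direction between the groups. Of the 61 measured members, 54 lay within 2 times their scanner error of 0. No paired analysis was possible because each group has 1 array.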
